A study of Mus musculus with 93 samples.

Results

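The enzymes that assemble triglyceride in the liver were followed through 93 mouse livers: the mitochondrial glycerol-3-phosphate acyltransferase Gpam, the lysophosphatidate acyltransferase Agpat2, the lipins Lpin1 and Lpin2, the monoacylglycerol acyltransferase Mogat1, and the diacylglycerol acyltransferases Dgat1 and Dgat2. Every probeset to which the platform annotation gives a single symbol from this list was taken, which gave 13 of 11412 probesets and all 7 genes. The array measured liver RNA of male mice that had been fasted for 4 hours, had received one gavage of 400 µl and were killed 6 hours later, with 1 array per mouse. The gavage held a synthetic triglyceride made of a single fatty acid, a PPARα agonist at 10 mg/ml (WY14643 or fenofibrate), or the vehicle, carboxymethyl cellulose, as control. WT mice were 129S1/SvImJ and PPARα −/− mice were 129S4/SvJae, so that each difference between the genotypes was also one between substrains, and genotype and substrain cannot be told apart. Run 1 held controls, WY14643, fenofibrate, C18:1, C20:5 and C22:6, and run 2, done months afterwards, held C18:3, C18:2 and C10:0 with controls of its own. There were 3 WT controls in run 1, 4 controls of each genotype in run 2, 4 WT mice with WY14643, 4 WT mice with C18:2, 4 PPARα −/− mice with C20:5, and 5 mice in each of the other groups. The labels give an age of 12 to 20 weeks for the run 1 controls and the WY14643 mice and of 8 to 24 weeks for every other group, so the controls of run 1 differed in labelled age range from the mice given fenofibrate or a triglyceride in that run. All comparisons below are with controls of the same run and genotype.

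Triglyceride is built by adding fatty acyl chains to glycerol 3-phosphate. Gpam adds the first chain and Agpat2 the second, the lipins remove the phosphate from phosphatidate to give diacylglycerol, and Dgat1 and Dgat2 add the last chain; Mogat1 makes diacylglycerol by another route, from monoacylglycerol. Diacylglycerol and phosphatidate also feed the synthesis of phospholipids, and lipin 1 additionally acts in the nucleus as a transcriptional coactivator. PPARα is a nuclear receptor for fatty acids that turns on genes of fatty acid oxidation in the fasted liver, and SREBP-1, encoded by Srebf1, turns on genes of fatty acid synthesis after a meal.

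The stretches of 250 bases before the transcription starts of 4 members are shown because the responses of Gpam and Mogat1 differed between the genotypes and because the lipins moved together from mouse to mouse. They are the most upstream RefSeq starts of each gene on GRCm38.p6, written 5′ to 3′ on the strand of the gene, with capitals for every match, on both strands, to AGGTCA (a nuclear receptor half-site), CACGTG (an E-box) or GGGCGG (a GC box).
Gpam (chr19:55127239-55127488, − strand): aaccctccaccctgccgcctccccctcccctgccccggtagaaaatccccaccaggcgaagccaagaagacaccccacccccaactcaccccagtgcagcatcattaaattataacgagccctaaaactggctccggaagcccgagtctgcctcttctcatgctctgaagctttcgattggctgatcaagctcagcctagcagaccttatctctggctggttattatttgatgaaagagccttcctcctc
Mogat1 (chr1:78510810-78511059, + strand): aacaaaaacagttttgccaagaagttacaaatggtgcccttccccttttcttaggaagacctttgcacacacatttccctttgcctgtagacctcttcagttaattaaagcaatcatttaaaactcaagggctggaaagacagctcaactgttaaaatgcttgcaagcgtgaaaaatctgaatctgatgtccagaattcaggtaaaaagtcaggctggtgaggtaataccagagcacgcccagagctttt
Lpin1 (chr12:16610967-16611216, − strand): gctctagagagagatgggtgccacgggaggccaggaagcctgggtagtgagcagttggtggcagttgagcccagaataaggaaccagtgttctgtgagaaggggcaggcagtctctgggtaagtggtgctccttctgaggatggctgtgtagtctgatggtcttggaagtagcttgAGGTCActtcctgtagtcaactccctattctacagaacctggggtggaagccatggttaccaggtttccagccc
Lpin2 (chr17:71183282-71183531, + strand): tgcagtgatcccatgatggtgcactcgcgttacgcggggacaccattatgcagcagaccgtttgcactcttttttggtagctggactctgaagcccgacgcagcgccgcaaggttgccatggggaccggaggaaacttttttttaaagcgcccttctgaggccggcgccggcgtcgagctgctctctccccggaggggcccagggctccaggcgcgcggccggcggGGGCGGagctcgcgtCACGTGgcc
The Lpin1 stretch held 1 AGGTCA, with its first base 74 bases before the start. The Lpin2 stretch held 1 CACGTG, 9 bases before the start, and 1 GGGCGG, 24 bases before it. The Gpam and Mogat1 stretches shown held none of these 3 motifs, while the other RefSeq start of Gpam had 1 AGGTCA, 196 bases before the start, and 1 GGGCGG, 16 bases before it. The direct repeat DR1 (AGGTCA, any base, AGGTCA, so that each match also holds AGGTCA) and the sterol element TCACNCCAC were found in none of the 8 RefSeq entries of the 5 members that have one, which include Agpat2. Among all 32851 promoter stretches of the same length, 14% held AGGTCA, 6.02% CACGTG, 32.7% GGGCGG, 1.05% TCACNCCAC and 0.0335% DR1. These matches describe letters in a window and were not set against binding data.

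Signals are on the log2 scale of the authors' background-adjusted intensities, and a gene with several probesets is represented by the one of highest mean signal. Median signals per array, on the linear scale, ran from 135 to 145 in run 1 and from 154 to 167 in run 2, and no comparison crosses the runs. One of 3 Ppara probesets separated the genotypes, with log2 signals of at least 8.10 in WT and at most 7.93 in PPARα −/− livers. The 7 measured hepatocyte markers, Alb and Apoa1 among them, were high in all groups. In liver tissue, fewer cells of a type and less RNA per cell cannot be told apart. Nothing in the labels beyond the word biological says how the replicate mice were housed or bred. A change is called where the adjusted p of limma's moderated test is under 0.05 over all 11412 probesets. These are probesets left after the authors' filter against low variation. Shares of all probesets and percentiles of an array given below refer to them and not to the whole array.

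In WT mice, WY14643 raised 5 of the 7 genes and lowered none, against 25.3% of all probesets called and 11.6% that rose; 14.8% lay above the controls without overlap. The 5 were Gpam, Agpat2, Lpin2, Mogat1 and Dgat2, and calls of Mogat1 rest on signals among the lowest tested, as described with that gene. Fenofibrate raised 3 (Gpam, Lpin2 and Mogat1) and lowered Lpin1, against 12.8% of all probesets called, of which 6.78% rose and 5.98% fell, and 9.15% above the controls without overlap. C22:6 raised Lpin2 and Mogat1, against 5.41% called, 3.34% that rose and 6.21% above the controls. With the other 5 triglycerides (C18:1, C20:5, C18:3, C18:2 and C10:0, in that order) limma called 0 of the 7 genes, where the background was 0%, 0.499%, 3.19%, 0.359% and 1.4%, and at an unadjusted p under 0.05 the numbers of genes were 2, 1, 2, 1 and 1. In PPARα −/− mice no member was called with either agonist, against 0% for WY14643 and 0.114% for fenofibrate, and 3 and 0 genes were under the unadjusted p. With WY14643, 4 of the 13 member probesets rose there at an unadjusted p under 0.01, as did 1.18% of all probesets. With the triglycerides, members were called there. C18:3 raised both lipins and lowered Gpam, against 9.92% of all probesets called, 5.69% that rose and 4.23% that fell. C22:6 raised Lpin2 and lowered Gpam, against 14.1% called, 5.87% that rose and 8.18% that fell. C18:1 raised Lpin2 (1.24% called, 0.754% rose). C18:2 lowered Gpam (0.158% called, 0.0438% fell), and so did C10:0 (6.6% called, 3.38% fell). C20:5 gave 0 calls there, against 0.0613%, with 1 gene under the unadjusted p. In all, 11 of 56 tests in WT and 8 of 56 in PPARα −/− mice were called. When each comparison was fitted on its own arrays alone, 6 of the 11 and 0 of the 8 calls were left.

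**Figure D1:**
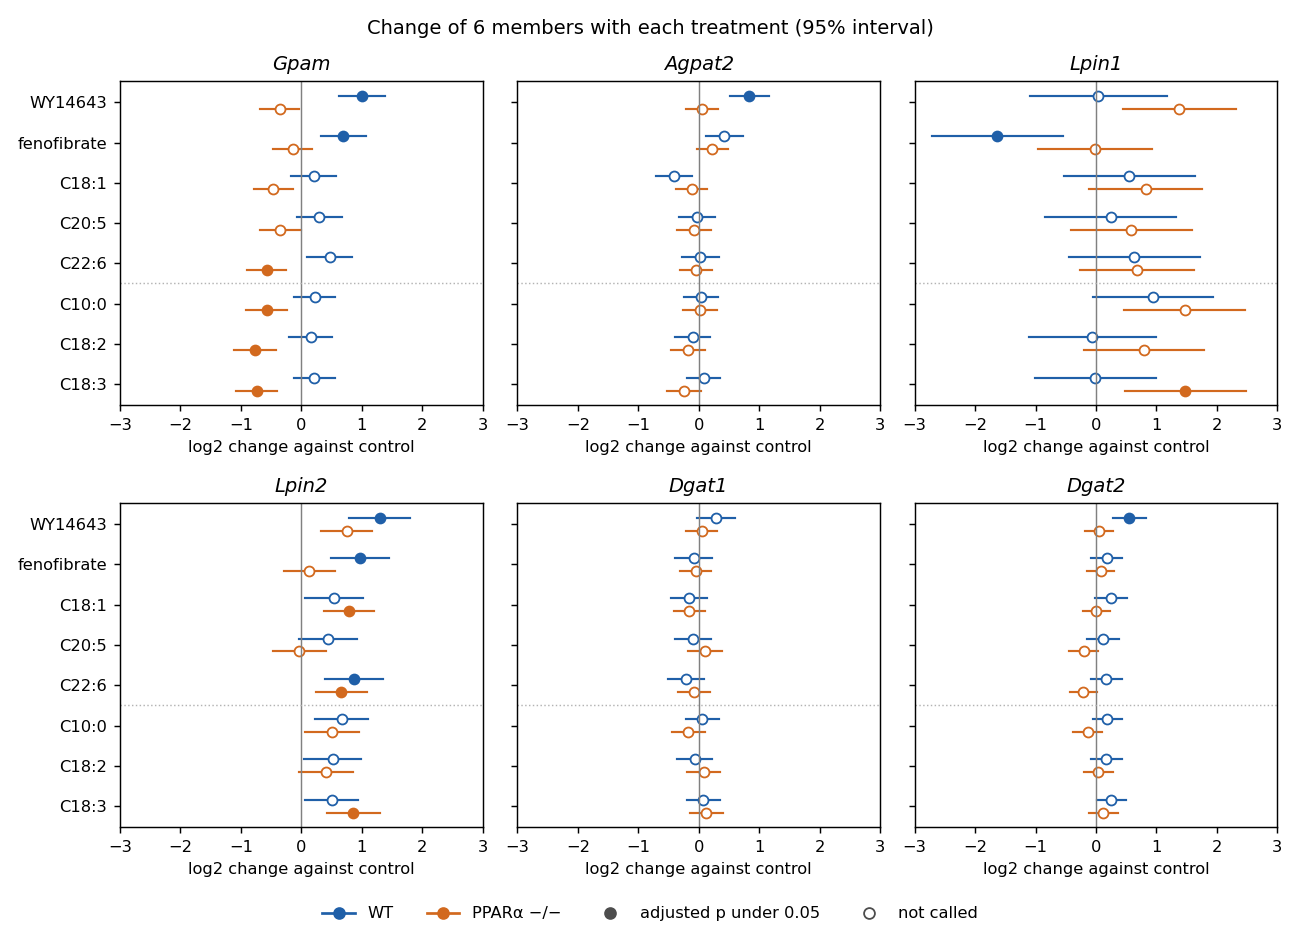
Log2 change of 6 members against the control of the same run and genotype, with 95% intervals from the moderated test. WT mice are blue and PPARα −/− mice orange. Filled points have an adjusted p under 0.05, and the dotted line separates run 1 (above) from run 2. Mogat1 is left out because most of its signals lie in the lowest 5% of the tested probesets of an array. The Gpam points lie to the right of 0 in WT and to the left of 0 in PPARα −/− mice for all 8 treatments, whereas those of Dgat1 lie close to 0 in both.

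Gpam, which commits acyl chains to glycerolipid synthesis, rose with both agonists in WT mice and fell with most triglycerides in PPARα −/− mice. The WT controls of run 1 had log2 signals of 9.72, 9.08 and 9.74, and the 4 WT mice with WY14643 had 10.51, 10.51, 10.54 and 10.53. All 4 lay above every control. The change was 1.00 ± 0.19 (SE, adjusted p = 3.4e-05), or 2.01-fold. With fenofibrate the signals were 10.16, 10.20, 10.08, 10.26 and 10.35, again without overlap (change 0.69 ± 0.19, adjusted p = 0.0058). The second of the controls was the lowest, and without it the fenofibrate change was 0.48 (adjusted p = 0.15). In WT mice the 6 triglycerides gave changes from 0.15 with C18:2 to 0.47 with C22:6, none of which passed, although the 5 mice with C22:6 (10.20, 9.98, 9.86, 9.92 and 9.99) lay above all 3 controls.

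In PPARα −/− livers the Gpam signal moved the other way. The controls of run 1 were at 9.46, 9.95, 9.28, 9.37 and 10.10 and the mice with C22:6 at 9.19, 8.56, 8.74, 9.10 and 9.70, which overlapped but gave a fall of -0.57 ± 0.16 (adjusted p = 0.012). The controls of run 2 were at 10.01, 9.86, 10.80 and 9.90. The mice with C18:2 were at 9.34, 9.43, 9.38, 9.14 and 9.60 (change -0.76 ± 0.17, adjusted p = 0.036), and those with C18:3 at 9.55, 9.39, 9.17, 9.40 and 9.51 (change -0.74 ± 0.17, adjusted p = 0.0033). Every mouse with either fat lay below every control, where 1.97% (C18:2) and 4.64% (C18:3) of all probesets did. C10:0, the medium-chain fat, gave -0.57 ± 0.17 (adjusted p = 0.029), C18:1 -0.46 ± 0.16 (adjusted p = 0.13) and C20:5 -0.35 ± 0.17 (adjusted p = 0.98). The size of the run 2 values rested in part on the third control, at 10.80. Without it the changes with C18:3, C18:2 and C10:0 were -0.52, -0.54 and -0.35, with adjusted p of 0.058, 0.18 and 0.25. The C22:6 call was also lost without control replicate 2, control replicate 5 or C22:6 replicate 2, the C18:2 call without C18:2 replicate 1 or 4, and the C10:0 call without C10:0 replicate 1, 2 or 5. With array weights or with the replicate number as a block the C18:2 fall was not called. None of the 4 falls was called when both Gpam probesets were averaged. The dimmer one had a within-group SD of 0.67 against 0.26 and changed by between -0.86 and -0.44 with the same 4 fats.

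The response of Gpam differed between the genotypes in the test of the difference itself. The WT change minus the PPARα −/− change was 1.36 ± 0.25 for WY14643 (adjusted p = 3.4e-05), 0.84 ± 0.25 for fenofibrate (adjusted p = 0.023), 1.05 ± 0.25 for C22:6 (adjusted p = 0.0073) and 0.96 ± 0.24 for C18:3 (adjusted p = 0.031). In these 4 tests, 15.4%, 6.7%, 2.86% and 0.859% of all probesets were called. For C18:1, C20:5, C10:0 and C18:2 the differences were 0.67, 0.64, 0.79 and 0.92 and did not pass (adjusted p from 0.43 to 0.96, with 0%, 0.0175%, 0.0175% and 0% of all probesets called). Without WT control replicate 2 the differences for fenofibrate and C22:6 were 0.62 and 0.83 and were no longer called. The fenofibrate call was also lost without PPARα −/− control replicate 2 or 5, and the C18:3 call without any of WT control replicate 1, PPARα −/− control replicate 3, WT C18:3 replicate 3 and PPARα −/− C18:3 replicates 2 and 3, with values down to 0.74. The fenofibrate, C22:6 and C18:3 calls were also lost when both probesets were averaged (1.10, 1.27 and 1.00) and when only the groups compared were fitted, and the C18:3 call when only the arrays of run 2 were. Averaged over the 5 unsaturated triglycerides, Gpam changed by 0.27 ± 0.11 in WT (adjusted p = 0.15) and by -0.58 ± 0.10 in PPARα −/− mice (adjusted p = 4.6e-05), and the difference of 0.85 ± 0.15 passed (adjusted p = 0.00022). In these averages 7.96%, 15.5% and 4.17% of all probesets were called. Over both agonists the averages were 0.85 ± 0.17 in WT mice and -0.25 in PPARα −/− mice, and the difference was 1.10 ± 0.22 (adjusted p = 0.00013), where 22.9%, 0.00876% and 13.9% of all probesets were called. For the unsaturated fats the PPARα −/− average and the difference were called in every fit that left out 1 array.

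**Figure D2:**
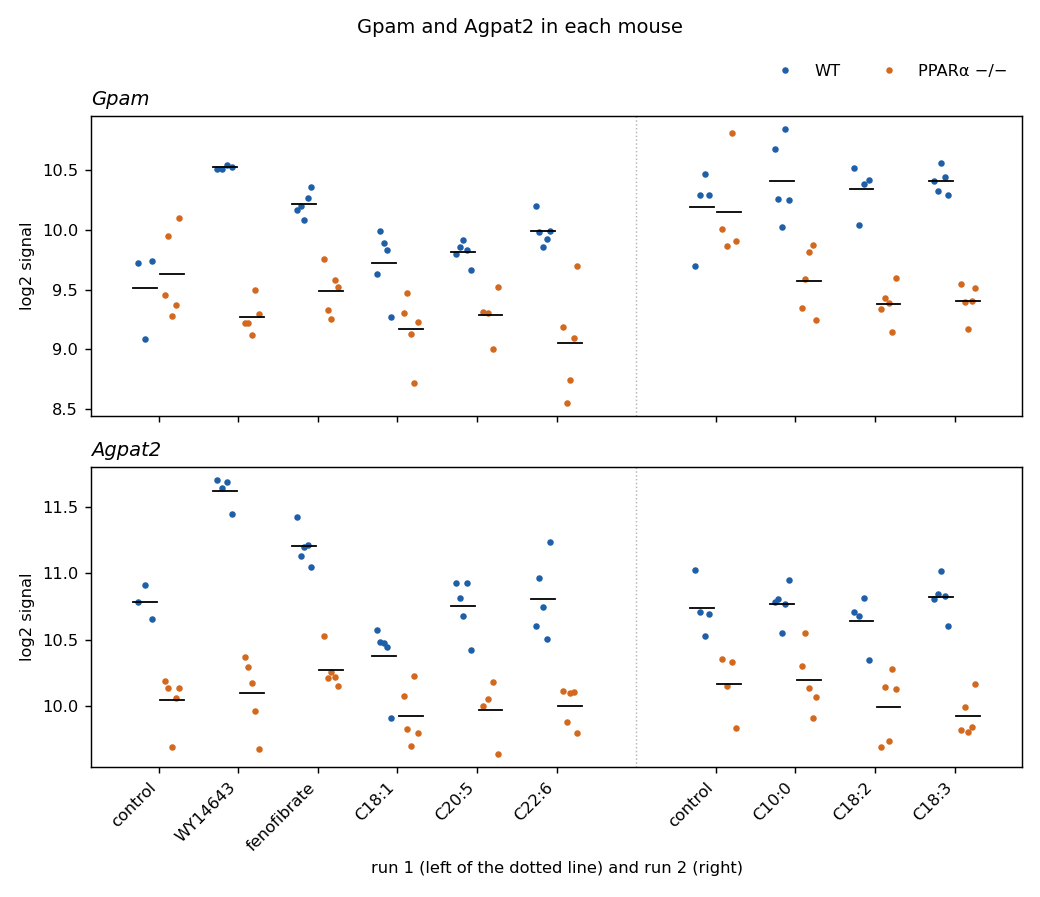
Log2 signal of Gpam (upper) and Agpat2 (lower) in each mouse, by treatment and genotype (WT blue, PPARα −/− orange); bars are group means and the dotted line separates the runs. Gpam of the WT mice with WY14643 sits between 10.51 and 10.54, above all 3 controls, and Agpat2 of PPARα −/− controls sits below that of WT controls in both runs.

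Agpat2, the acyltransferase that makes phosphatidate, differed between untreated genotypes and answered to WY14643. In run 1 the WT controls were at 10.78, 10.91 and 10.65 and the PPARα −/− controls at 10.19, 10.14, 9.69, 10.06 and 10.14. In run 2 they were at 11.03, 10.70, 10.53 and 10.70 and at 10.35, 10.15, 10.33 and 9.83. The genotypes did not overlap in either run, with every PPARα −/− control below, as for 7.5% and 4.43% of all probesets. PPARα −/− minus WT was -0.74 ± 0.15 in run 1 (adjusted p = 0.00035, 8.2% of probesets called) and -0.57 ± 0.15 in run 2 (adjusted p = 0.0065, 6.84% called), and Agpat2 was the only one of the 7 genes called in either. With the replicate number as a block the run 1 call was lost, and the run 2 call was lost without WT control replicate 1 (-0.48) or PPARα −/− control replicate 4 (-0.46). WY14643 took WT mice to 11.70, 11.64, 11.69 and 11.45, above every other liver of either genotype (change 0.84 ± 0.16, adjusted p = 2.2e-05, 1.79-fold). The PPARα −/− mice with WY14643 were at 10.37, 10.29, 10.17, 9.96 and 9.67 (change 0.05 ± 0.13), and the difference between the genotypes was 0.79 ± 0.21 (adjusted p = 0.0039). Fenofibrate gave 11.43, 11.13, 11.20, 11.21 and 11.05 in WT mice, all above the controls, but the change of 0.42 ± 0.15 missed the threshold (adjusted p = 0.053). No triglyceride gave a call for Agpat2 in either genotype. With C18:1 in WT mice the change was -0.41 (adjusted p = 0.41), and all 5 mice lay below all 3 controls. In that comparison 2.56% of all probesets did so. The average change of Agpat2 over the 5 unsaturated fats was -0.09 in WT (95% interval -0.27 to 0.10) and -0.13 in PPARα −/− mice (-0.29 to 0.03).

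The lipins, the phosphatases between phosphatidate and diacylglycerol, changed in opposite directions with fenofibrate in WT mice. Lpin1 changed there by 0.04 with WY14643 and -1.64 with fenofibrate, and Lpin2 by 1.30 and 0.97. With WY14643 the Lpin1 change ran from -0.31 to 0.59 in fits that left out 1 array. The lipins were not tested against each other. The changes of both lipins were above 0, though mostly not called, with C18:1, C20:5, C22:6 and C10:0 in WT mice. The same held in PPARα −/− mice with WY14643, C18:1, C22:6, C10:0, C18:2 and C18:3. Lpin2 rose with WY14643, fenofibrate and C22:6 in WT mice and with C18:1, C22:6 and C18:3 in PPARα −/− mice. The 3 WT controls of run 1 were at 9.36, 8.77 and 10.01. Mice with WY14643 were at 10.32, 10.91, 10.69 and 10.79, all above the controls, and those with fenofibrate at 10.18, 10.50, 9.94, 10.35 and 10.81, of which 1 lay within them. The changes were 1.30 ± 0.25 (adjusted p = 3.5e-05) and 0.97 ± 0.24 (adjusted p = 0.0025). All 4 Lpin2 probesets were called with each agonist, with changes of 1.30 to 1.85 for WY14643 and 0.97 to 1.69 for fenofibrate. The second control was again the lowest, and without it the fenofibrate change was 0.67 (adjusted p = 0.11). In PPARα −/− mice Lpin2 changed by 0.75 with WY14643 (adjusted p = 0.34) and by 0.13 with fenofibrate (adjusted p = 0.94). The WY14643 change was called there with array weights, at an unadjusted p under 0.01, and with adjustment over all comparisons of the family. It was also called without PPARα −/− control replicate 3. The differences between the genotypes, 0.55 (adjusted p = 0.29) and 0.84 (adjusted p = 0.1), were not called, so the agonist response was not shown to differ by genotype.

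The response of Lpin2 to a triglyceride was not called as different between the genotypes for any of the 6 fats (adjusted p from 0.66 to 1). In WT mice the change lay between 0.44 with C20:5 and 0.88 with C22:6 (adjusted p = 0.016), and only the latter passed. That call was lost without WT control replicate 1, WT control replicate 2 or C22:6 replicate 1 (lowest value 0.57) and with the replicate block. In PPARα −/− mice the controls of run 2 were at 9.44, 9.69, 9.92 and 10.53 and the mice with C18:3 at 10.85, 10.69, 11.10, 10.15 and 11.00, a change of 0.86 ± 0.22 (adjusted p = 0.008) that was called in every fit that left out 1 array. C20:5 stood apart in run 1 of this genotype, with 9.33, 9.23, 9.79 and 9.87 against 10.27, 10.07, 10.54, 10.30 and 10.69 with C18:1. These 4 mice lay below all 5, and the difference of -0.81 ± 0.22 had an adjusted p of 0.11; 2.22% of all probesets separated the 2 groups in that direction. On the average of the 5 unsaturated fats Lpin2 rose by 0.58 ± 0.15 in WT (adjusted p = 0.007) and by 0.54 ± 0.13 in PPARα −/− mice (adjusted p = 0.0027). The difference of 0.04 had a 95% interval from -0.36 to 0.43. Leaving out the second WT control of run 1 took the WT average to 0.39 (adjusted p = 0.18), while the PPARα −/− average was not called when all 4 probesets were averaged. The calls with C18:1 and C22:6 in PPARα −/− mice were lost in 8 and 4 of 10 fits that left out 1 array.

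Lpin1, the lipin that also acts as a coactivator, was called as lower with fenofibrate in WT mice, a call that several other fits lost. The 5 mice were at 7.26, 9.22, 5.86, 7.86 and 9.91, against 9.45, 8.96 and 10.56 in the controls. Of these mice, 3 lay below every control and the other two within their range. The change was -1.64 ± 0.54 (adjusted p = 0.034), and -1.70 at the second probeset (adjusted p = 0.044). It was not called without WT control replicate 1 or 3 or without fenofibrate replicate 1, 3 or 4, with values between -2.11 and -1.10 in these fits and the others. The call was also lost when only the groups compared were fitted and when p was adjusted over all comparisons of the family. The SD was 1.60 in the fenofibrate mice and 0.82 in the controls, while the SE rests on a spread of 0.76 pooled over all groups. WY14643 gave 8.03, 10.40, 10.36 and 10.01 in WT mice (change 0.04 ± 0.57), so that 1 mouse lay far below the other 3. The direct contrast of WY14643 with fenofibrate was 1.67 ± 0.50 (adjusted p = 0.06). In the same fenofibrate mice Lpin2 had risen, as given above, and the lowest Lpin1 signal (replicate 3) went with the lowest Lpin2 signal of the group.

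In WT mice the triglycerides gave Lpin1 changes from -0.06 with C18:2 to 0.95 with C10:0 (adjusted p = 0.4), none called. In PPARα −/− mice its change was above 0 with every treatment except fenofibrate (-0.02). The controls of run 2 were spread over 8.07, 9.25, 10.11 and 10.95, and the mice with C18:3 were at 11.16, 11.07, 11.51, 11.21 and 10.43 (change 1.48 ± 0.50, adjusted p = 0.045). C10:0 gave 11.49, 10.97, 10.65, 11.22 and 10.98 (change 1.47 ± 0.50, adjusted p = 0.059), and in run 1 WY14643 gave 10.80, 10.89, 11.36, 10.78 and 10.34 against controls at 8.41, 9.08, 10.86, 8.97 and 9.94 (change 1.38 ± 0.47, adjusted p = 0.5). The treated mice were closer together than the controls and overlapped with them in all 3 comparisons, the highest control of each run lying above the lowest treated mice. The C18:3 call was lost in every fit that left out 1 of the 9 arrays except that without control replicate 4, where the change was 1.93. It was also lost with the replicate number as a block and with quantile normalisation. The average over the 5 unsaturated fats was 0.87 ± 0.29 (adjusted p = 0.032) and was lost without PPARα −/− control replicates 1, 2 or 4 of run 1 or 1 or 2 of run 2, down to 0.67. None of the differences between the genotypes in the response of Lpin1 passed (adjusted p from 0.18 to 1).

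**Figure D3:**
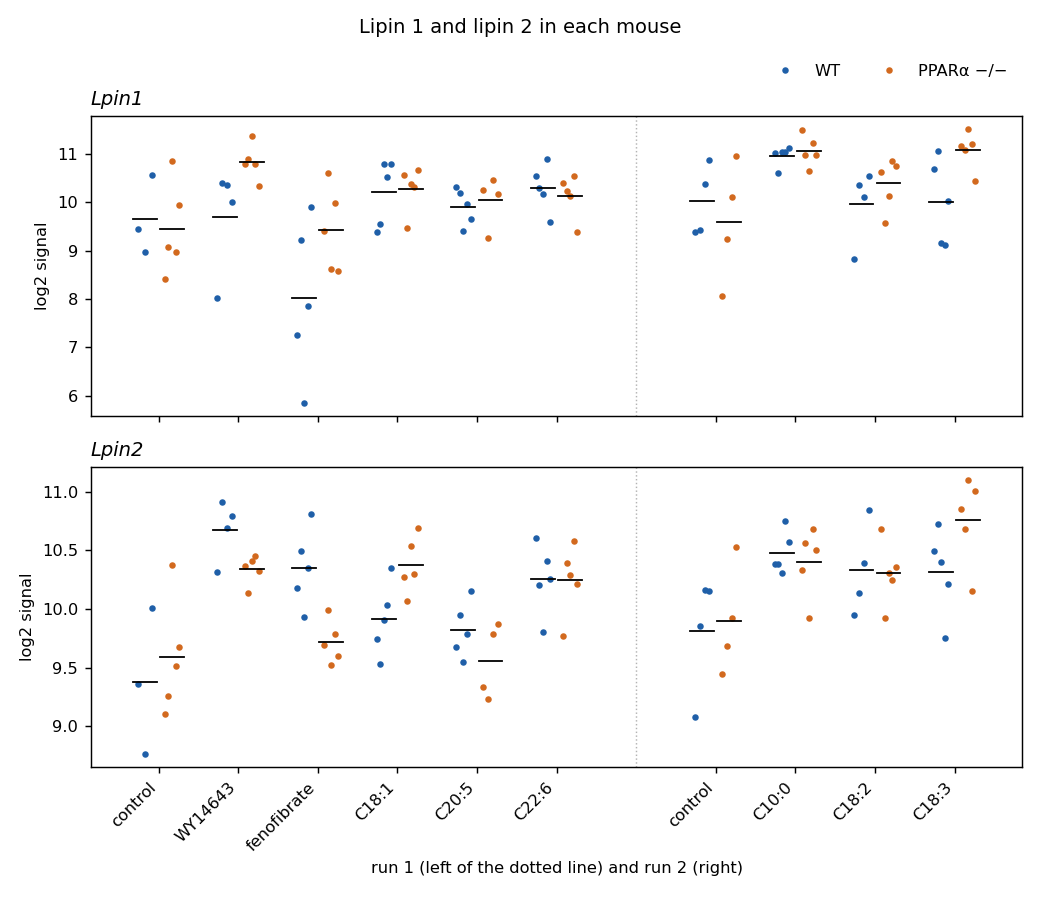
Log2 signal of Lpin1 (upper) and Lpin2 (lower) in each mouse, by treatment and genotype (WT blue, PPARα −/− orange), with group means as bars and the runs separated by the dotted line. The axes differ: Lpin1 spans 5.86 to 11.51, with 3 of the 5 fenofibrate WT mice lowest, and Lpin2 spans 8.77 to 11.10.

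Mogat1, which makes diacylglycerol from monoacylglycerol, was among the lowest of the tested probesets in controls. Its log2 signal was 1.73, 1.91 and 1.98 in the WT controls of run 1, within the lowest 0.359% of the tested probesets of each array. The 5th percentile of these probesets lay between 3.93 and 4.62 over the arrays. It is a position among filtered probesets and not a measured background. WY14643 gave 5.13, 5.95, 4.53 and 4.17 in WT mice, of which 3 were above the 5th percentile of their array. With the controls set to that percentile, the mean signal was 1.68-fold higher (adjusted p of the fit on measured signals = 2.4e-19). Fenofibrate gave 4.09, 3.21, 4.08, 3.69 and 3.11 (adjusted p = 1.1e-09) and C22:6 2.85, 2.69, 2.78, 2.67 and 3.40 (adjusted p = 0.0013). Both groups lay above all 3 controls and wholly below the 5th percentile, so these calls are between very low signals and no size is given. C20:5 also lay above the controls, at 3.07, 2.63, 2.51, 2.16 and 2.14, without passing (adjusted p = 0.22), as 3.85% of all probesets did. All 48 PPARα −/− livers were between 1.18 and 2.06, whatever the treatment. The test of the difference between the genotypes was called for WY14643 and for fenofibrate, but all PPARα −/− livers and all controls were below that percentile, so its size cannot be read. With 16 added to the intensities before log2, which damps low signals, the WY14643 and fenofibrate calls against control were kept and the C22:6 call was lost (adjusted p = 0.11).

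**Figure D4:**
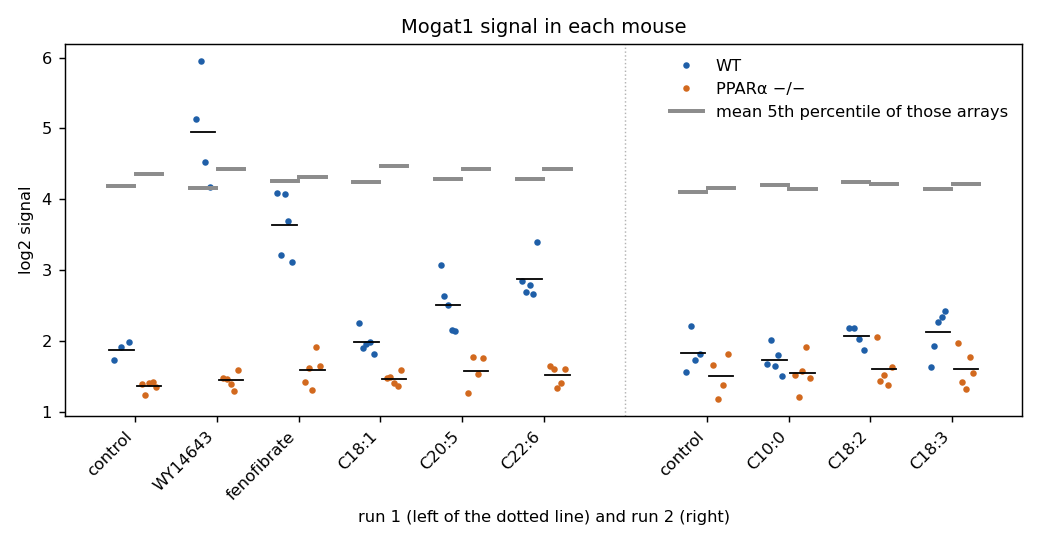
Log2 signal of Mogat1 in each mouse, by treatment and genotype (WT blue, PPARα −/− orange), with group means as thin black bars and the mean 5th percentile of the arrays of each group as grey bars. The 4 WT mice with WY14643 lie at 4.17 to 5.95, those with fenofibrate and C22:6 lie between the controls and the grey bars, and all PPARα −/− mice lie at or below 2.06.

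Dgat2, the acyltransferase that completes triglyceride in the liver, changed little. WT controls of run 1 were at 10.13, 9.38 and 10.10 and the WY14643 mice at 10.34, 10.50, 10.39 and 10.45, above all of them (change 0.55 ± 0.14, adjusted p = 0.0012). This rested on the second control, and without it the change was 0.31 (adjusted p = 0.12). The difference between the genotypes for WY14643, 0.50 ± 0.18, was at the threshold (adjusted p = 0.043) and was lost in 8 of the 17 fits that left out 1 array, down to 0.26 without WT control replicate 2. In PPARα −/− mice its changes lay between -0.21 and 0.12 and none was called. Dgat1, the other diacylglycerol acyltransferase, is read by a single probeset whose design can match more than 1 transcript. It was called in no comparison. Its largest change against control was 0.28 ± 0.16, with WY14643 in WT mice (6.91, 7.42, 7.46 and 7.54 against 7.12, 7.14 and 6.88), and its average change over the 5 unsaturated fats was -0.09 in WT (95% interval -0.27 to 0.09) and 0.02 in PPARα −/− mice (-0.14 to 0.18).

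Treatments of the same run were also set against each other directly, in 14 pairs and 98 tests, of which 3 were called. One was Mogat1 in WT mice between WY14643 and fenofibrate (1.72% of all probesets called), where all 5 fenofibrate mice and 1 of 4 WY14643 mice were at or below the 5th percentile of their arrays, so no size is given. Between C22:6 and C18:1 (3.92% called), which differ in chain length and in the number of double bonds, Agpat2 was higher with C22:6 by 0.43 ± 0.13 (adjusted p = 0.043), with 10.60, 10.97, 10.75, 10.50 and 11.24 against 10.57, 10.48, 10.47, 10.45 and 9.91. Mogat1 was called there too, but all 10 mice were below the 5th percentile and the call was lost with 16 added to the intensities (adjusted p = 0.1). The Agpat2 difference was lost without C18:1 replicates 2, 3, 4 or 5 or C22:6 replicates 2 or 5, with values from 0.32 to 0.51. Its lowest mouse was C18:1 replicate 5. Against control, Agpat2 changed by 0.03 with C22:6 (adjusted p = 0.95) and by -0.41 with C18:1 (adjusted p = 0.41), neither called. Of the 42 tests among the 3 fats of run 2 limma called 0, with 7 at an unadjusted p under 0.05 (0%, 0.0175% and 0.00876% of all probesets called in WT and 0%, 0.99% and 0.0175% in PPARα −/− mice, for C18:3 minus C18:2, C18:3 minus C10:0 and C18:2 minus C10:0). C22:6 minus C20:5 (0.0351%) and C20:5 minus C18:1 (1.16%) in WT mice gave no call either. In PPARα −/− mice none of the leading probesets was called between WY14643 and fenofibrate (0.0351%), C22:6 and C20:5 (2.94%), C22:6 and C18:1 (0.307%) or C20:5 and C18:1 (0.175%). For Gpam in WT mice, C18:3 minus C10:0 was within rounding of 0, with a 95% interval from -0.32 to 0.32.

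Genes around the same steps were counted from lists chosen with results of these data known. Of 11 measured acyltransferases and phosphatases outside the 7, WY14643 raised 3 in WT mice and lowered none, with a median change of 0.16 against -0.05 over all probesets, 11.6% of which rose and 13.8% fell. They were the glycerol-3-phosphate acyltransferases Gpat4 (1.50 ± 0.34, adjusted p = 0.00038) and Gpat3 (1.38 ± 0.20, adjusted p = 9.4e-08) and the lysophospholipid acyltransferase Lpcat3 (0.90 ± 0.18, adjusted p = 3.8e-05). Gpat3 also rose with fenofibrate (0.81), C22:6 (0.68), C10:0 (0.64) and C18:3 (0.82). In PPARα −/− mice C22:6 raised 1 and lowered 2 of the 11 (5.87% of all probesets rose and 8.18% fell), and C18:3 raised 1 and lowered 1 (5.69% and 4.23%). The phospholipid phosphatase Plpp1 rose with both (0.61 and 0.77), while Plpp3, of the same family, fell (-0.63 and -0.32), and Lpcat3 fell with C22:6 (-0.62). Of 6 genes that supply glycerol 3-phosphate, WY14643 raised 2 and lowered 2 in WT mice, against the same 11.6% and 13.8%. The glycerol-3-phosphate dehydrogenases Gpd2 and Gpd1 rose by 1.57 ± 0.26 and 0.99 ± 0.21, and Gpd1l (-0.71) and Pck1, of glyceroneogenesis (-0.42), fell. Gpd2 fell in PPARα −/− mice with C22:6 (-0.68), C10:0 (-0.70) and C18:3 (-0.71), which also lowered Gpam there, and the glycerol channel Aqp9 fell with C22:6 (-0.27) and C18:3 (-0.61).

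The phospholipid branch shares phosphatidate and diacylglycerol with the members. WY14643 raised 7 and lowered 3 of its 16 measured genes in WT mice, with a median change of 0.30, fenofibrate raised 4, and C22:6 and C18:3 raised 3 each. Over all probesets, 11.6% rose and 13.8% fell with WY14643, and 6.78%, 3.34% and 2.24% rose with fenofibrate, C22:6 and C18:3. Choline kinase beta, Chkb, rose by 1.81 ± 0.17 with WY14643 (adjusted p = 1.4e-14), 1.27 with fenofibrate, 0.66 with C22:6 and 0.49 with C18:3. Cardiolipin synthase, Crls1, rose by 0.98, 0.72, 0.57 and 0.69, and cholinephosphotransferase, Chpt1, which draws on diacylglycerol, by 0.70, 0.38, 0.41 and 0.33 with the same treatments. Phosphatidylserine synthase Ptdss2 rose with WY14643 (0.77). In PPARα −/− mice the other choline kinase, Chka, rose by 2.45 ± 0.51 with C22:6, 1.83 with C10:0 and 1.72 with C18:3, while Chpt1 fell by 0.25 with C22:6. Of 8 regulators and partners of the lipins, WY14643 raised Mtor (1.08 ± 0.14) and Ppara (0.63 ± 0.19, adjusted p = 0.01) and lowered Ctdnep1, the phosphatase that dephosphorylates lipins (-0.61), in WT mice. The coactivator Ppargc1b fell in PPARα −/− mice with C22:6 (-1.17) and C10:0 (-1.17).

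Srebf1 fell in PPARα −/− mice with each of the 4 fats that lowered Gpam and with C18:1. It fell with C18:1 (-2.07), C22:6 (-2.33), C10:0 (-1.97), C18:2 (-2.57) and C18:3 (-2.78), all called. Of the 11 measured genes of SREBP-1 and fatty acid synthesis, 3, 6, 2, 1 and 4 fell with these fats and 0 rose, with medians of -0.90, -1.03, -0.37, -0.57 and -0.81; over all probesets 0.482%, 8.18%, 3.38%, 0.0438% and 4.23% fell. Fasn, fatty acid synthase, fell with C22:6 (-1.36) and C18:3 (-1.54). In WT mice Srebf1 fell with C22:6 (-1.44), C18:2 (-1.69) and C18:3 (-1.54) and 1 other gene of the list at most was called in either direction with any fat, while Gpam gave no call. Whether the falls of Srebf1 and Gpam depend on each other was not tested. The 5 measured genes of the PPARα response, Pdk4 and Ehhadh among them, all rose in WT mice with WY14643, fenofibrate, C22:6 and C18:3. Over all probesets 11.6%, 6.78%, 3.34% and 2.24% rose with these treatments. This list, too, was chosen with results of these data known.

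Genes listed as markers of other cell types moved with some of these results. Of 9 listed adipocyte markers 2 were measured, Fabp4 and Cidec. The paper names Fabp4 among the liver genes that rose out of proportion with WY14643 when compared with C22:6. With WY14643 in WT mice both measured adipocyte markers rose (Fabp4 by 1.86 and Cidec by 4.91), and the mean log2 signal of the 2 ranged from 7.90 to 8.26 in these mice against 4.23 to 5.06 in the controls. Cidec also rose in WT mice with C22:6 (2.87) and C18:3 (2.70). None of 11 Kupffer cell and macrophage markers was called there. With C22:6 in PPARα −/− mice, 8 of 11 Kupffer cell and macrophage markers rose, where 5.87% of all probesets did, and their mean log2 signal ranged from 6.85 to 7.99 against 4.51 to 7.26 in the controls, and both adipocyte markers rose. Of 6 endothelial markers 2 rose (Lyve1 and Vwf), with a list mean of 6.16 to 6.66 against 5.57 to 6.74 in the controls, and of 4 blood cell markers Alas2 fell, with a list mean of 5.62 to 7.21 against 4.43 to 7.46. With C18:3 in PPARα −/− mice 0 of the 11 Kupffer cell and macrophage markers and 0 of the 2 adipocyte markers were called. The mean log2 signal of 7 stellate cell markers ranged there from 5.69 to 6.24, against 6.02 to 8.07 in the controls of run 2. With C10:0 it ranged from 5.84 to 6.34 and with C18:2 from 5.51 to 7.67. With C22:6 it ranged from 6.07 to 7.02, against 5.25 to 6.99 in the controls of run 1. Gpam fell in PPARα −/− mice with C18:3 (-0.74) and with C22:6 (-0.57). The part of these cell types in the results for Gpam, Agpat2, Lpin2, Mogat1 and Dgat2 was not tested.

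From mouse to mouse within a group, the lipins went together. After removing the group means, Lpin1 and Lpin2 correlated at r = 0.69 over the 93 arrays, which share the 20 group means removed (0.71 in WT and 0.66 in PPARα −/− mice), whereas their 16 changes against control, which share 4 control groups, correlated at -0.11. Agpat2 went against Lpin2 within groups (-0.44), and Gpam with Lpin2 and Dgat2 at 0.36 and 0.34 in WT but at -0.16 and -0.13 in PPARα −/− mice. Lpin1 had the widest spread of the leading probesets, with a within-group SD of 0.76, wider than 97.6% of all probesets, against a median of 0.24. Agpat2, Dgat1 and Dgat2 were at 0.21, 0.21 and 0.18. These are descriptions without a test.

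**Figure D5:**
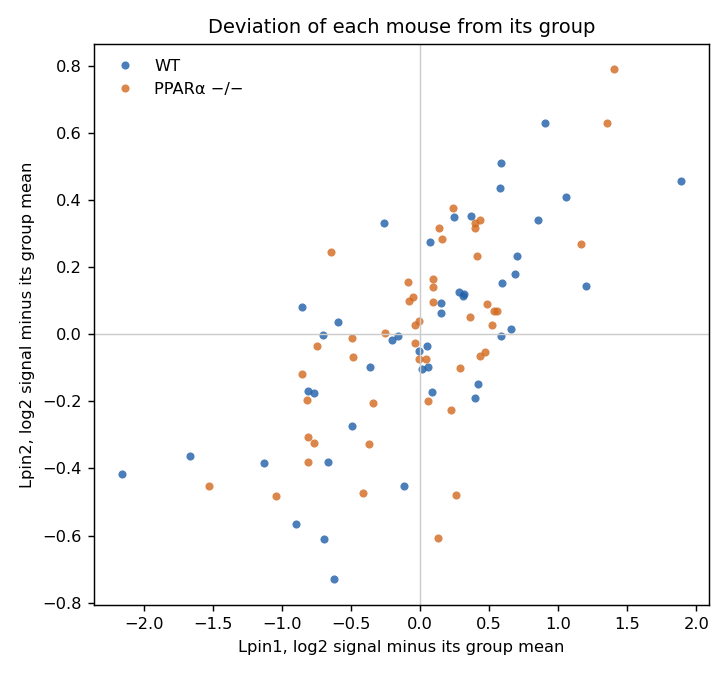
Log2 signal of Lpin2 against that of Lpin1 in each of the 93 mice, each as the deviation from its group mean (WT blue, PPARα −/− orange). Mice high in Lpin1 for their group were mostly high in Lpin2, at r = 0.69.

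The genes whose 16 changes against control were most like those of a member were named by Pearson's r among 3227 probesets with an SD of at least 0.25 over the changes, as a description of 16 values that share 4 control groups. For Gpam they were Irs1, Hadh and Dock8 (r = 0.96 each), for Agpat2 Slc4a4, Ptpa and 5031439G07Rik (0.94, 0.94 and 0.92), and for Lpin1 Arhgef26, Alas1 and Zbtb16 (0.92, 0.92 and 0.90). For Lpin2 they were Cln8, Baiap2l1 and Cobll1 (0.91, 0.90 and 0.87), for Dgat2 Fbxo3, Pank3 and Ube2h (0.90, 0.89 and 0.88), and for Mogat1 Spon2, Enc1 and Trpv2 (0.99, 0.97 and 0.97). For Mogat1 the rank correlations were lower (0.64, 0.71 and 0.56), and nearly all of its signals lay below the 5th percentile of the array.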

How the data were processed

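Liver RNA of 93 mice was hybridised to Affymetrix mouse genome arrays, 56 in run 1 and 37 in run 2. The authors deposited 1 table of background-adjusted, normalised intensities per probeset on the linear scale, made with GCRMA 2.20 per the submitters' processing notes; background adjustment spreads low signals widely on the log2 scale. The table used here held 11463 probesets, and 51 control probesets were left out. The paper gives 11463 as the number left of a larger array after its filter on inter-quartile range. Shares of all probesets are therefore shares of probesets already selected for variation. Of the rest, 10279 had 1 gene symbol in the platform annotation, 406 several and 727 none.

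The deposited intensities were taken to log2 with no further normalisation. One linear model with a mean for each of the 20 groups was fitted with limma 3.58.1 in R 4.3.3, and p-values were adjusted by Benjamini-Hochberg over 11412 probesets within each comparison. Each treatment was compared with the control of its run and genotype, and these changes between genotypes, treatments within a run, and averages over treatments were tested as contrasts. The authors' model was of the same kind. The script was tested on simulated data with known changes. Errors after ± are standard errors of the fit, and the number of arrays limits the precision. The labels call the arrays biological replicates and say no more of their origin.

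The members and lists were chosen with earlier results of these data known. From each pathway list, up to 4 called genes with the largest change with WY14643 or C22:6 in WT mice, and up to 4 with C22:6 or C18:3 in PPARα −/− mice, were named, along with Srebf1, Fasn, Pdk4 and Ehhadh. Samples with the same replicate number deviated together in every pair, at r over 0.1, in 1 of 16 comparisons with control (WY14643 in PPARα −/− mice), so the numbers were not treated as pairs. Alternatives were filters on low or invariant probesets, separate fits, array weights, an intensity trend, other centring, quantile normalisation, an added constant, other adjustments, the mean of all probesets of a gene, the replicate block, and leaving out each array. Leaving out both control arrays that stood apart was chosen after seeing the data. Figures were drawn with matplotlib 3.10.9 in Python 3.11.15.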

Additional observations from a re-analysis of the deposited data

Results flagged for a closer look

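In 10 of 133 sets of 1 gene in 1 group of 4 or 5 mice, a single mouse lay far from the others by Dixon's test, on 10 different arrays; chance gives about 1 in 20 sets. Gpam was at 10.80 in replicate 3 of the PPARα −/− controls of run 2, against 9.86 to 10.01 in the others. Agpat2 was low in replicate 3 of the PPARα −/− controls of run 1 (9.69, others 10.06 to 10.19), high in replicate 1 of the PPARα −/− mice with fenofibrate (10.53, others 10.15 to 10.25) and low in replicate 5 of the WT mice with C18:1 (9.91, others 10.45 to 10.57). Lpin1 was low in replicate 2 of the WT mice with C10:0 (10.59, others 11.02 to 11.11) and in replicate 1 of the WT mice with WY14643 (8.03, others 10.01 to 10.40). Among the WT mice with C22:6, Mogat1 was high in replicate 5 (3.40, others 2.67 to 2.85) and Dgat1 in replicate 4 (6.96, others 6.78 to 6.81). Dgat2 was high in replicate 4 of the PPARα −/− mice with fenofibrate (10.50, others 10.11 to 10.18) and low in replicate 3 of the WT mice with fenofibrate (9.68, others 10.07 to 10.18).

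The change with treatment differed between the genotypes by limma's test of the difference in 11 cases, given as WT minus PPARα −/− on the log2 scale. With WY14643 these were Gpam (1.36), Agpat2 (0.79), Mogat1 (2.99) and Dgat2 (0.50). With fenofibrate they were Gpam (0.84) and Mogat1 (1.54), with C22:6 Gpam (1.05) and with C18:3 Gpam (0.96). The average over the 5 unsaturated triglycerides differed for Gpam (0.85), and that over the 2 agonists for Gpam (1.10) and Mogat1 (2.27). The Mogat1 values are fitted differences over groups that, apart from WY14643 in WT mice, lay wholly below the 5th percentile of the array, and they cannot be read as sizes.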

How the results depend on the processing

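Of 322 tests of a member, 45 were called, and none changed direction under any alternative. Of the 45, 17 were called under every alternative that kept their probeset, among them Gpam, Agpat2, Lpin2 and Mogat1 with WY14643 in WT mice. Fitting only the groups of a comparison left 6 of the 11 WT calls against control, 0 of the 8 PPARα −/− calls, 4 of the 8 differences between genotypes and 1 of the 3 calls between treatments. This fit estimates the spread from fewer samples. The mean of all probesets of a gene left 2 PPARα −/− calls. Without both control arrays that stood apart (chosen after seeing the data), the WT, PPARα −/− and difference counts were 7, 5 and 4. The calls between treatments numbered 1 when probesets of low signal were left out, which removes Mogat1, 10 with array weights and 13 at an unadjusted p under 0.01. The cause of the other shifts was not tested.

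With each array left out in turn, the counts ranged from 7 to 12 in WT (7 without control replicate 2 of run 1), from 4 to 10 in PPARα −/− mice (4 without control replicate 3 and 10 without control replicate 4 of run 2), from 5 to 9 for the differences (5 without WT control replicate 2 of run 1), from 1 to 3 for the controls (1 without WT control replicate 1 of run 2), from 2 to 4 between treatments and from 10 to 15 for the averages. With the replicate block these 6 counts were 11, 6, 9, 1, 3 and 14, against 11, 8, 8, 2, 3 and 13 without it. Mogat1 was limited by its signal, which lay in the lowest 5% of the tested probesets in nearly all groups.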

Other observations

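The genes that went with a member from mouse to mouse, after group means were removed, were listed as a description over the 93 arrays, among 4810 probesets with a within-group SD of at least 0.25. Gpam went with genes of lipid synthesis: Fasn, fatty acid synthase (r = 0.64), and Sc5d and Fdft1, of sterol synthesis (0.64 each). Both lipins went most closely with Pfkfb3, a regulator of glycolysis (0.74 for Lpin1 and 0.75 for Lpin2). Lpin1 also went with Lurap1l (0.74), Tle1 (0.73) and Pptc7 (0.71). Lpin2 also went with Herpud1, of the endoplasmic reticulum stress response (0.74), Nfkbia (0.73) and Angptl4, an inhibitor of lipoprotein lipase (0.72). It went against Leap2 (-0.69). Agpat2 went with Mrap (0.79), which encodes a partner of the ACTH receptor. Dgat2 went with Usp2 (0.65) and the cell cycle kinase Wee1 (0.64). Across the 16 changes against control, Agpat2 and Mogat1 had the highest correlation of any pair of members (0.85), while within groups they correlated at 0.34 in WT and -0.48 in PPARα −/− mice; most Mogat1 signals lay below the 5th percentile of the array. These arrays share groups, runs and normalisation.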
